A study of Mus musculus with 6 samples.

Results

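Memory and effector transcription factors were examined in CD8+ T cells of WT and BIT mice as 10 genes taken by symbol, *Eomes*, *Tbx21*, *Id2*, *Id3*, *Zeb2*, *Prdm1*, *Bcl6*, *Tox*, *Ikzf3* and *Batf*, out of 78275 genes in the deposited table. All 10 were among the 16105 genes with enough counts to be compared. CD8+ T cells lacking CD4 and high in TCRβ had been sorted for RNA from 3 mice of either genotype, labelled as males of 9 to 10 weeks, with 1 library per mouse. The mice were on the C57BL/6 background. BIT mice carry an allele on both chromosomes in which *Psmb11*, encoding the thymoproteasome subunit β5t, was placed at the translation start of *Psmb8*, encoding the immunoproteasome subunit β5i. The allele acts in every cell that uses *Psmb8* and not in CD8+ T cells alone, and the study used 1 of its BIT lines unless it says otherwise. The labels give lymph nodes as the tissue, but name spleens too in their protocol.

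These factors set the course of a CD8+ T cell after it leaves the thymus. The T-box factors Eomes and T-bet (*Tbx21*) switch on genes of cytokine response and killing, Eomes being tied to memory cells and T-bet to effector cells. Zeb2 acts with T-bet in terminal effector cells, and Blimp-1 (*Prdm1*) in effector cells is opposed by Bcl6, a repressor that favours memory and follicular programmes. Id2 and Id3 bind E proteins and keep them from DNA, Id2 in effector and Id3 in memory precursor cells. BATF pairs with Jun proteins and IRF4 after TCR stimulation, TOX is known from thymic selection and exhausted cells, and Aiolos (*Ikzf3*) is an Ikaros family factor of lymphocytes.

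Each library held from 37467678 to 52922675 estimated counts, and the counts of the 10 genes lay between 94 and 12806. The engineered locus followed the labels, with *Psmb8* between 8024 and 10790 counts in WT mice and between 59 and 73 in BIT mice, and *Psmb11* at 0 counts in each WT mouse and between 1226 and 1926 in BIT mice. The library of WT replicate 3 did not match its label as male. *Xist* had 66626 counts in it and 4 Y-linked genes had 0, so that results are also given without it. In the other libraries these Y-linked genes summed to between 8474 and 12329 counts, so the mismatch was in the WT group alone. A difference of sex cannot be told apart from other differences of that mouse. Replicate 3 of both genotypes stood apart on the first principal component, with scores of 54.6 and 28.6 against values between -36.5 and -3.31. The CD8 T cell markers summed to between 4120 and 4970 CPM (counts relative to the TMM-scaled library size) in WT mice and between 4220 and 4970 CPM in BIT mice, while *Cd4* was at or below 0.728 CPM in each library.

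Per kb of annotated exon, *Ikzf3* had the highest level in WT mice, 27.9 ± 3.32 CPM per kb (SD, n = 3), followed by *Eomes* at 20.4 ± 2.39 and *Batf* at 16.1 ± 0.973 (SD, n = 3). *Id2* (12.8), *Tox* (12.3), *Tbx21* (8.91) and *Id3* (8.35) came next, and each of these overlapped its neighbour in that order between mice. *Bcl6* was at 3.3 CPM per kb. *Prdm1* and *Zeb2* were the lowest, at 0.566 and 0.386 CPM per kb, with overlapping ranges. This order rests on the length of all annotated exons together, 5617 bases for *Prdm1* and 22741 for *Zeb2*. In CPM *Prdm1* was at 3.18 ± 0.865 and *Zeb2* at 8.78 ± 7.17 in WT mice (SD, n = 3). The BIT means were 2.77 and 2.76 CPM. In BIT mice *Eomes* came first at 34.0 ± 3.47 CPM per kb (SD, n = 3), overlapping *Ikzf3* at 33 ± 2.24 (SD, n = 3), and *Zeb2* stayed last at 0.121. The level spanned 72.3-fold from the highest to the lowest gene in WT mice and 281-fold in BIT mice. In the WT mice it was 128-fold without replicate 3, the highest of them in *Zeb2*, a calculation added after the values were seen.

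**Figure D1:**
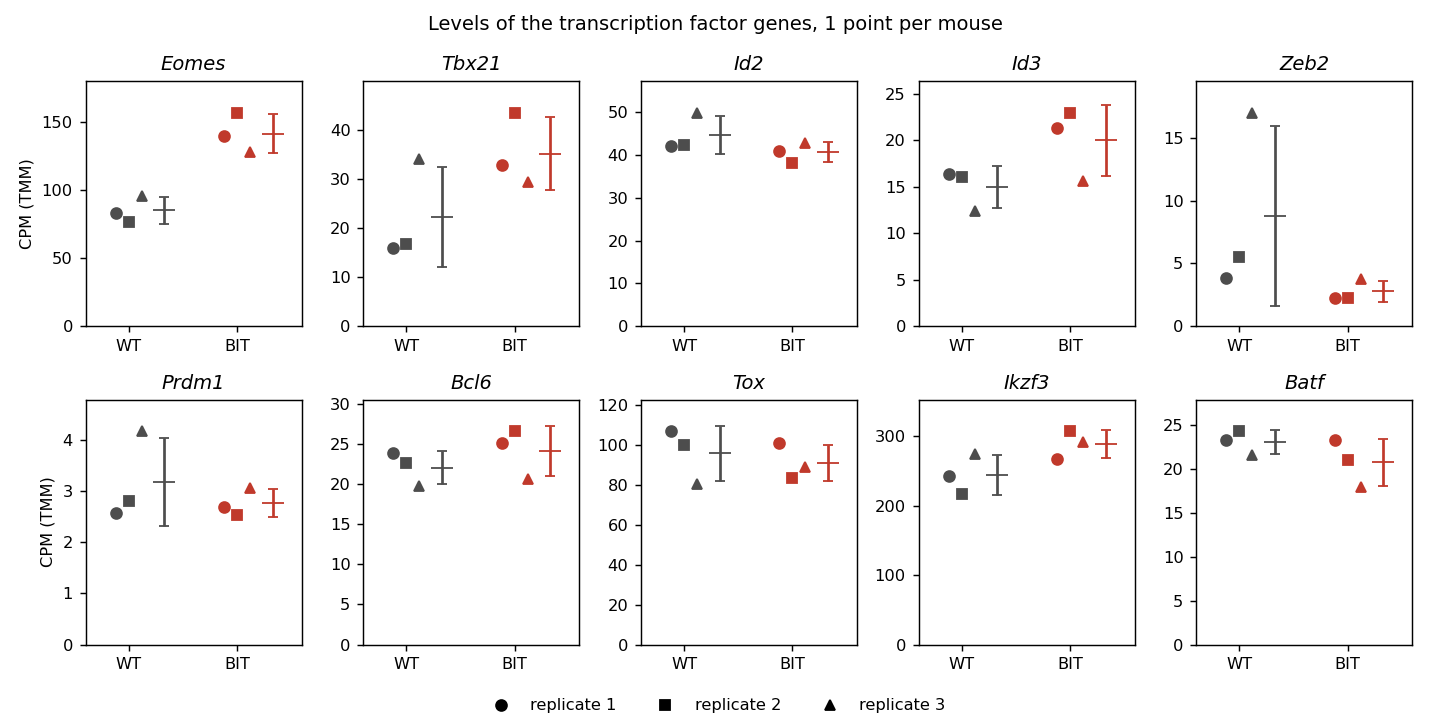
Level of each of the 10 transcription factor genes in CPM (TMM-scaled, linear axis from 0) in WT and BIT mice, with 1 point per mouse, the symbol giving the replicate number, and the mean ± SD (n = 3) beside the points. All 3 BIT mice lie above all WT mice for *Eomes* and below them for *Zeb2*, and WT replicate 3 is the highest WT mouse for *Tbx21* and *Zeb2*.

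None of the 10 genes passed an adjusted p of 0.05 between BIT and WT mice by limma-voom with Benjamini-Hochberg adjustment over all genes, against 0.137% of all genes tested. edgeR's quasi-likelihood test also called 0 of the 10 genes (0.0869% of all genes), and DESeq2 called 1, *Eomes* (0.776% of all genes). At an unadjusted p below 0.05 there were 4 of the 10, *Eomes*, *Tbx21* and *Id3* higher and *Zeb2* lower in BIT mice, against 8.57% of all genes tested, 4.25% higher and 4.32% lower. The groups of mice did not overlap for 2 of the 10, *Eomes* and *Zeb2*, against 13.3% of all genes tested, 7.38% higher and 5.96% lower. The median log2 fold change was 0.0153 over the 10 genes and 0.0118 over all genes, with 5 genes on either side of 0. In sorted cells measured in bulk, more cells of a kind and more RNA per cell cannot be told apart.

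*Eomes* (ENSMUSG00000032446, chromosome 9, 118307280 to 118315200 on GRCm39, plus strand) had the smallest p of the 10 genes. Its level was 82.7, 76.3 and 95.8 CPM in the WT mice and 139.6, 156.5 and 127.8 CPM in the BIT mice. Each BIT mouse was thus above each WT mouse, with means of 84.9 ± 9.92 and 141 ± 14.4 CPM (SD, n = 3). The fitted log2 fold change, on the quantile-normalized log2 CPM scale, was 0.69 (standard error 0.114, 95% interval 0.43 to 0.95, adjusted p = 0.112 by limma-voom), a fold of 1.62. Without WT replicate 3 it was 0.80 with an adjusted p of 0.0271 by limma-voom, and the removal of any single mouse gave values from 0.62 to 0.80. The adjusted p then ranged from 0.0271 to 0.582.

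*Tbx21* (ENSMUSG00000001444, chromosome 11, 96988897 to 97006158, minus strand) was at 15.8, 16.7 and 34.0 CPM in the WT mice and at 32.7, 43.4 and 29.3 CPM in the BIT mice. WT replicate 3 lay within the BIT range, at 2.09 times the mean of the other WT mice, and only BIT replicate 2 was above all WT mice. The log2 fold change was 0.75 (standard error 0.275, 95% interval 0.13 to 1.38, adjusted p = 0.538 by limma-voom). The result turned on WT replicate 3. Without it the log2 fold change of *Tbx21* was 1.1 (standard error 0.161, adjusted p = 0.0396 by limma-voom), and in replicates 1 and 2 alone it was 1.20 (adjusted p = 0.0199 by limma-voom). Without any other single mouse it was from 0.53 to 0.85, and *Tbx21* did not pass.

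**Figure D2:**
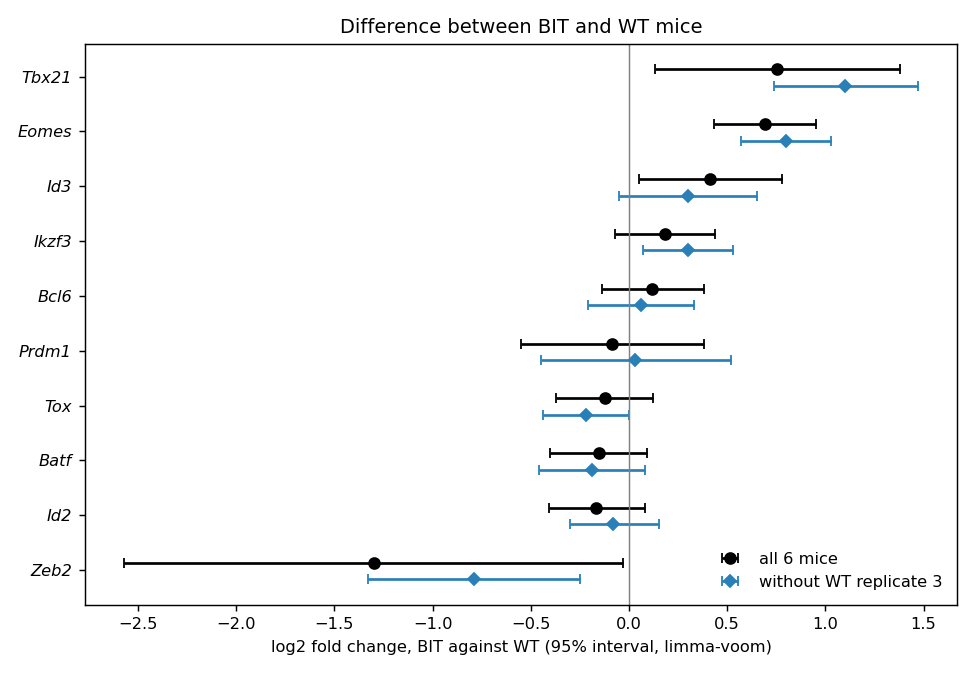
Log2 fold change of each gene in BIT against WT mice with its 95% interval by limma-voom, with all 6 mice (black circles) and without WT replicate 3 (blue diamonds). *Tbx21* moves from 0.75 to 1.1 and *Zeb2* from -1.30 to -0.79 when that mouse is left out, and the interval of *Eomes* lies above 0 in both.

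Genes that T-box factors are known to act on, with other effector genes, were followed as a list of 11, all of them tested. The study had itself shown *Gzmb*, *Prf1* and *Nkg7* from these libraries, so that the list is not independent of them. *Il2rb* encodes the receptor chain shared by IL-2 and IL-15. It was the one gene of the list to pass the adjusted p of 0.05, against 0.137% of all genes. It rose from 256.9, 215.5 and 255.1 CPM in the WT mice to 415.1, 446.3 and 426.6 CPM in the BIT mice. The fitted difference was 0.77 on the log2 scale (standard error 0.0893, adjusted p = 0.025 by limma-voom). With 1 mouse left out, the call on *Il2rb* held only without WT replicate 3 (adjusted p = 0.0141 by limma-voom) and was lost without any other mouse (adjusted p between 0.069 and 0.244). The log2 fold change of *Il2rb* stayed between 0.70 and 0.84 in these refits. In *Cxcr3*, *Prf1* and *Nkg7* the BIT mice were also above the WT mice without overlap, so that 4 of the 11 genes stood apart and higher, against 7.38% of all genes. *Cxcr3*, a chemokine receptor, was between 38.9 and 56.1 CPM in WT mice and between 62.7 and 72.7 CPM in BIT mice (log2 fold change 0.59, adjusted p = 0.414 by limma-voom, and 0.78 with an adjusted p of 0.0317 without WT replicate 3). The perforin gene *Prf1* and *Nkg7*, of cytotoxic granules, had log2 fold changes of 0.27 and 0.18 (adjusted p of 0.424 and 0.559 by limma-voom). In the fit 6 of the 11 genes were higher and 5 lower in BIT mice, against 52.3% of all genes higher. The lower ones were *Cx3cr1* (-1.6), *Klrg1* (-1.03), *S1pr5* (-0.84), *Gzmb* (-0.19) and *Ifng* (-0.15) on the log2 scale. Of these, 0 had an unadjusted p below 0.05 by limma-voom. The median over the 11 genes was 0.129, and 0.411 without WT replicate 3.

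The DNA before the start of *Il2rb* and of *Tbx21* is shown because the first gene passed the test and the second encodes 1 of the factors. The 250 bases before the start of the canonical transcript were read from GRCm39 at chr15:78379472-78379721 for *Il2rb* and chr11:97006159-97006408 for *Tbx21*, both on the minus strand and written 5′ to 3′. Capitals mark a T-box core (GGTGTGA, or TCACACC on the other strand) in the first and an E-box of the kind that ZEB proteins bind (CAGGTG, or CACCTG) in the second, letters that can overlap in GGTG. Neither window holds an annotated exon, and other transcripts of *Il2rb* start further upstream.
*Il2rb*: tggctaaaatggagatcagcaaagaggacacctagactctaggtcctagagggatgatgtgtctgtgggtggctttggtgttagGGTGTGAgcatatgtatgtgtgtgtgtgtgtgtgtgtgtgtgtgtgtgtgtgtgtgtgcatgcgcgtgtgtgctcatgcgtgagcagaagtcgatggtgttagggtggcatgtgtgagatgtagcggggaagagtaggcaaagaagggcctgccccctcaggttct
*Tbx21*: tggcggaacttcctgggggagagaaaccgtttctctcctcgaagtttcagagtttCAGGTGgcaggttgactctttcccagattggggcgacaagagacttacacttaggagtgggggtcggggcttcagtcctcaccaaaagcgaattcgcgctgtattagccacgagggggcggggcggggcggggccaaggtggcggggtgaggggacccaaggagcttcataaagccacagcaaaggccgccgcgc
The T-box core was found from -166 to -160 before the start of *Il2rb*. It was also in the window of *Nkg7*, from -227 to -221, and so in 2 of 11 windows of the list, in 0 of 10 windows of the transcription factors and in 3.23% of the windows of 21770 protein-coding genes. The E-box was in 2 of the 10 windows of the factors, those of *Tbx21* and *Prdm1*, against 17.7% of all windows. A match is a run of letters and was not tested as a binding site.

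*Zeb2* (ENSMUSG00000026872, chromosome 2, 44873644 to 45007464, minus strand) differed in the opposite direction. It had 201, 262 and 726 counts in the WT mice and 96, 94 and 151 counts in the BIT mice, or 3.85, 5.49 and 17.01 CPM against 2.26, 2.25 and 3.77 CPM. Each BIT mouse was below each WT mouse, by a small margin for BIT replicate 3 against WT replicate 1. The log2 fold change was -1.30 (standard error 0.561, 95% interval -2.57 to -0.03, adjusted p = 0.575 by limma-voom), and -0.79 (standard error 0.239, adjusted p = 0.302 by limma-voom) without WT replicate 3. Myeloid and B cells also express *Zeb2*. The 5 myeloid markers summed to between 11.9 and 18.0 CPM in WT mice and between 8.77 and 11.8 CPM in BIT mice, with 5 of 5 lower in BIT mice in the fit, and the 6 B cell markers summed to between 28.2 and 42.4 CPM in WT and between 22.7 and 31.4 CPM in BIT mice, with 6 of 6 lower. Over all genes tested, 52.3% were higher in BIT mice in the fit. No marker of these lists was at 0 in all libraries. None passed the test, against 0.137% of all genes, and none had an unadjusted p below 0.05 by limma-voom, against 8.57%. Of the 5 NK cell markers, 3 were higher and 2 lower in BIT mice in the fit. The part of any such cells in the counts of *Zeb2*, *Eomes*, *Tbx21* or *Il2rb* was not tested.

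WT replicate 3 also stood high in terminal effector genes. *Zeb2* was there at 3.64 times the mean of WT replicates 1 and 2, *Cx3cr1* at 7.86 times, *Klrg1* at 9.18 times, *S1pr5* at 5.54 times and *Gzmb* at 8.39 times. In all, 7 of the 11 genes of the T-box list and 2 of the 10 factors, *Tbx21* and *Zeb2*, were more than 2-fold higher in that mouse than in the other WT mice, against 8.43% of all genes. *Eomes* was at 1.2 times and *Il2rb* at 1.08 times. Of the same list, *Cxcr3*, *Nkg7* and *Prf1* were at 1.43, 1.03 and 0.913 times. Against WT replicates 1 and 2 alone, the mean of the 3 BIT mice was 2.16 times as high for *Tbx21*, 1.78 times for *Eomes* and 0.591 times for *Zeb2*. The B cell markers were at 28.2 CPM in WT replicate 3, the lowest of the WT mice, and the myeloid markers at 18.0 CPM, the highest by a small margin over WT replicate 2 at 17.7 CPM.

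**Figure D3:**
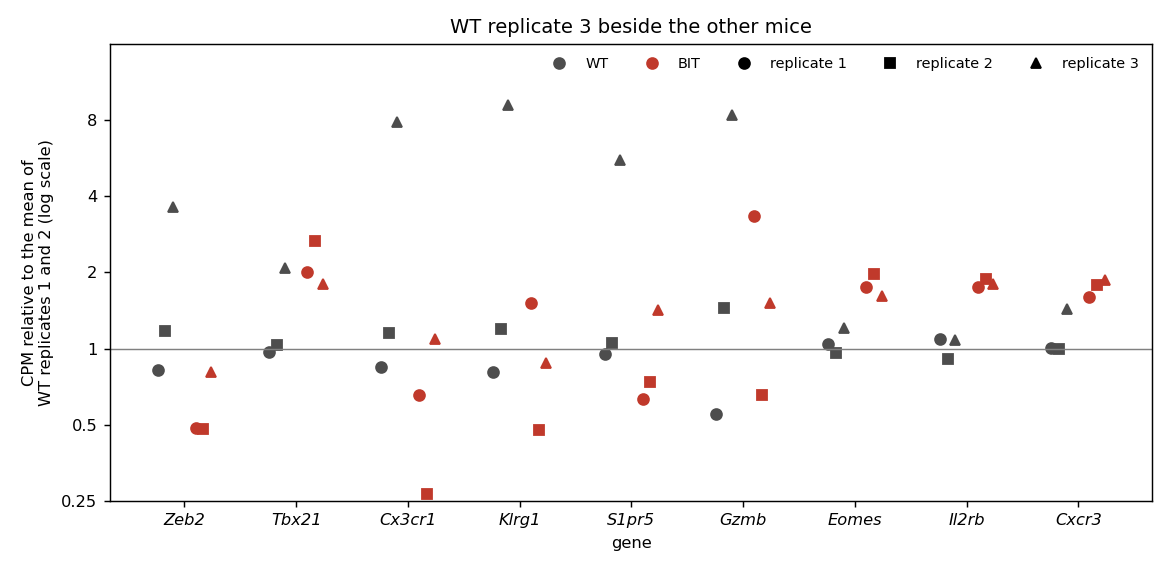
CPM of 2 T-box factor genes, *Zeb2* and 6 genes of the T-box list in each mouse, relative to the mean of WT replicates 1 and 2 (log scale, WT grey, BIT red, the symbol giving the replicate number). WT replicate 3 lies at 3.64 times for *Zeb2* and between 5.54 and 9.18 times for *Cx3cr1*, *Klrg1*, *S1pr5* and *Gzmb*, and at 1.2 and 1.08 times for *Eomes* and *Il2rb*.

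Of the inhibitors of E proteins, *Id3* (ENSMUSG00000007872, chromosome 4, 135870808 to 135873066) was at 16.4, 16.1 and 12.4 CPM in WT mice and 21.35, 22.9 and 15.65 CPM in BIT mice. BIT replicates 1 and 2 lay above all WT mice and BIT replicate 3 did not. The log2 fold change was 0.41 (standard error 0.162, 95% interval 0.05 to 0.78, adjusted p = 0.551 by limma-voom), and from 0.30 to 0.56 when single mice were removed. *Id3* was called in 0 of 15 alternatives. The smallest adjusted p among them was 0.095 by limma-voom, with replicate 3 as a batch, which the labels do not name. *Id2* (ENSMUSG00000020644, chromosome 12, 25143798 to 25147282) was at 42.0, 42.4 and 49.8 CPM in WT mice and 40.9, 38.15 and 42.9 CPM in BIT mice. The Id2 values overlapped, and the log2 fold change of *Id2* was -0.17 (95% interval -0.41 to 0.08, adjusted p = 0.699 by limma-voom). Among their partners and relatives, 0 of 3 genes tested passed, against 0.137% of all genes, while *Id1* and *Id4* had too few counts. The E protein genes *Tcf3* and *Tcf12* were at 0.08 and 0.06 on the log2 scale.

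*Prdm1* (ENSMUSG00000038151, chromosome 10, 44313171 to 44404497) was low throughout, with 134, 134 and 178 counts in WT mice and 114, 106 and 123 in BIT mice. The log2 fold change of *Prdm1* was -0.09 (95% interval -0.55 to 0.38, adjusted p = 0.924 by limma-voom) and turned to 0.03 without WT replicate 3, which had the highest level, 4.17 CPM. *Bcl6* (ENSMUSG00000022508, chromosome 16, 23783802 to 23807602) was at 23.9, 22.6 and 19.8 CPM in WT mice and 25.2, 26.6 and 20.6 CPM in BIT mice. Replicate 3 was the lowest in both genotypes, and the log2 fold change was 0.12 (95% interval -0.14 to 0.38, adjusted p = 0.799 by limma-voom).

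*Tox* (ENSMUSG00000041272, chromosome 4, 6686353 to 6991644) was at 106.6, 99.9 and 80.4 CPM in WT mice and 100.7, 83.3 and 88.7 CPM in BIT mice, with overlapping groups and a log2 fold change of -0.12 (95% interval -0.37 to 0.12, adjusted p = 0.774 by limma-voom). Among 9 genes of inhibitory receptors and NR4A factors, which accompany TOX in exhausted cells, 0 passed the test, against 0.137% of all genes. Their median log2 fold change was -0.269, and -0.128 without WT replicate 3. *Lag3*, an inhibitory receptor, was at 3.1 ± 0.933 and 1.8 ± 0.928 CPM (SD, n = 3) in WT and BIT mice (adjusted p = 0.63 by limma-voom), and *Nr4a1*, induced by TCR signals, at 15.5 ± 0.933 and 13.2 ± 1.4 CPM (SD, n = 3, adjusted p = 0.644 by limma-voom).

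*Batf* (ENSMUSG00000034266, chromosome 12, 85733423 to 85755861) was at 23.3, 24.2 and 21.5 CPM in WT mice and 23.3, 21.0 and 17.9 CPM in BIT mice. The groups overlapped, and the log2 fold change was -0.15 (95% interval -0.40 to 0.09, adjusted p = 0.715 by limma-voom). An AP-1 and IRF list held *Fos* family genes beside *Jun* genes. Of its 8 tested genes, 0 passed the adjusted p of 0.05, against 0.137% of all genes. In it 7 were lower in BIT mice and 4 of these had an unadjusted p below 0.05, against 4.32% of all genes. The median log2 fold change over the 8 was -0.556. *Irf4* was at 9.33, 9.72 and 8.95 CPM in WT mice and 7.62, 5.99 and 5.54 CPM in BIT mice, without overlap (log2 fold change -0.53, standard error 0.166, adjusted p = 0.508 by limma-voom). *Junb* was at 121 ± 20.7 and 85.7 ± 25.2 CPM (SD, n = 3, adjusted p = 0.537 by limma-voom). *Fos*, *Fosb*, *Jun* and *Junb* were called lower in replicates 1 and 2 alone and in no other setting tried.

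*Ikzf3* (ENSMUSG00000018168, chromosome 11, 98355728 to 98436857) was at 242.5, 216.3 and 274.4 CPM in WT mice and 267.7, 306.7 and 291.4 CPM in BIT mice. BIT replicate 1 lay below WT replicate 3, and the log2 fold change was 0.18 (95% interval -0.07 to 0.44, adjusted p = 0.688 by limma-voom). Of 7 tested relatives of the factors 0 passed, against 0.137% of all genes. Among these relatives, *Ikzf1*, encoding Ikaros, was at 0.11 and *Zeb1* at -0.16 on the log2 scale. Of 8 factors of naive and stem-like T cells 0 passed, against 0.137% of all genes, and their median was 0.0374. *Myb* (-0.44, adjusted p = 0.632 by limma-voom) and *Klf2* (0.18, adjusted p = 0.633 by limma-voom) had the smallest p values there. For 6 of the 10 factors, *Id2*, *Ikzf3*, *Batf*, *Prdm1*, *Bcl6* and *Tox*, the 95% interval lay within 1.5-fold in either direction.

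Counterpart factors were compared as log2 ratios within each mouse, on the quantile-normalized scale and not scaled for gene length. *Zeb2* over *Zeb1* was between -4.55 and -2.62 in WT mice and between -5.12 and -4.88 in BIT mice, without overlap and lower by 1.23 on average (two-sided exact permutation p = 0.1, which is the smallest that 3 mice against 3 allow). *Zeb2* alone was already without overlap between the genotypes, while *Zeb1* overlapped, so this ratio is not a separate result. Without WT replicate 3 the *Zeb2* over *Zeb1* difference was -0.65 and without WT replicate 1 it was -1.62. The 4 ratios had adjusted p values between 0.4 and 1 in that test. *Id2* over *Id3* had a mean of 1.62 ± 0.394 in WT and 1.03 ± 0.371 in BIT mice (SD, n = 3, exact permutation p = 0.3). BIT replicate 3 and WT replicate 2 both had an *Id2* over *Id3* of 1.44, and without WT replicate 3 the difference went from -0.59 to -0.36. *Eomes* over *Tbx21* was at 2.04 ± 0.469 and 2.01 ± 0.132 (SD, n = 3, exact permutation p = 1), with WT replicate 3 the lowest of all at 1.5. *Prdm1* over *Bcl6* was at -2.84 ± 0.358 and -3.06 ± 0.164 (SD, n = 3, exact permutation p = 0.5).

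**Figure D4:**
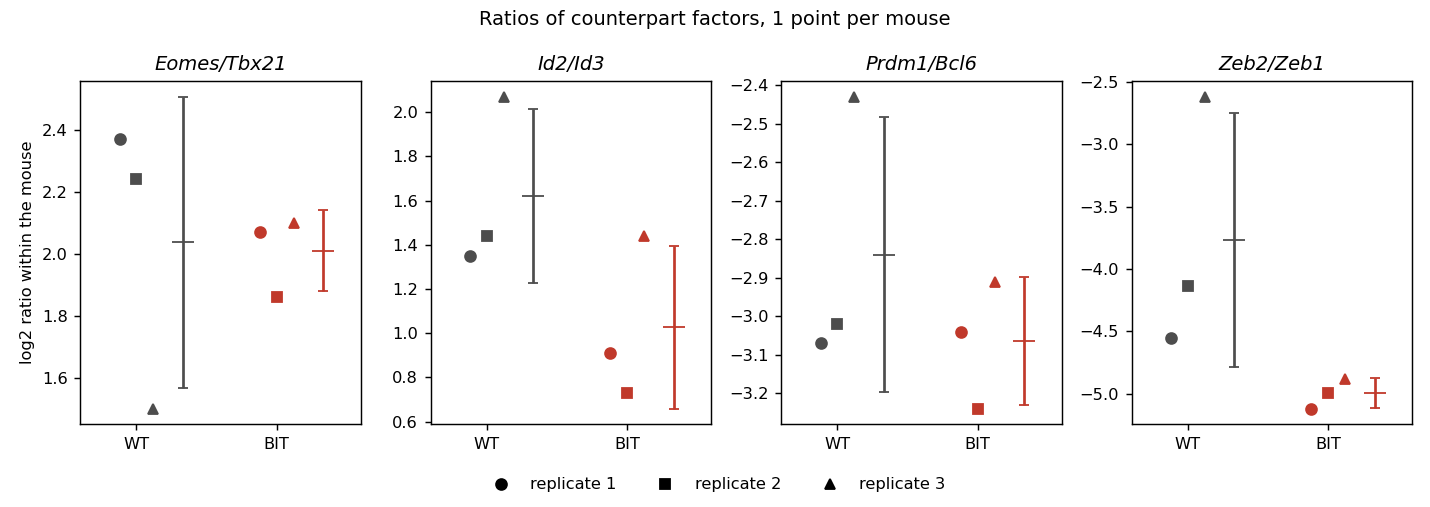
Log2 ratio of 4 pairs of factors within each mouse, with 1 point per mouse, the symbol giving the replicate number, and the mean ± SD (n = 3) beside the points. The axes do not start at 0 and differ between pairs. *Zeb2*/*Zeb1* separates the genotypes, as *Zeb2* alone does, and WT replicate 3 is the most distant WT mouse in each pair.

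The profiles most like those of the 3 factors with the largest spread over the 6 libraries were found among 12528 genes with a mean of at least 1 CPM, by the root mean square distance of centred log2 CPM. Nearest to *Eomes* were *Lysmd2* (0.0822), *Il18r1*, a chain of the IL-18 receptor (0.0897), and *Rnf43* (0.0982). *Il18r1* passed the test, with a difference of 0.63 towards BIT mice (log2, adjusted p = 0.0399 by limma-voom), but this call held only without WT replicate 3 (0.0317) and was lost without any other mouse (adjusted p from 0.1 to 0.277). The log2 fold change of *Il18r1* was from 0.58 to 0.67 in these refits. *Il18r1* was picked for its likeness to *Eomes*, whose groups did not overlap, so its difference is not a separate result. Nearest to *Zeb2* were *Slc28a2b* (0.239), *S100a4* (0.256) and *S1pr5* (0.32), and to *Tbx21* *Gm43420* (0.12), *Gm49784* (0.134) and *Med12l* (0.163). With 6 libraries, of which WT replicate 3 carries much of the spread of *Zeb2* and *Tbx21*, these distances are descriptions.

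Of the factors, the T-box genes alone passed the adjusted p of 0.05 in any of the 15 alternatives tried. With sample quality weights *Eomes* was called, against 0.199% of all genes. Without WT replicate 3 both *Eomes* and *Tbx21* were called, against 0.224% of all genes, as they were in replicates 1 and 2 alone, against 0.439%. *Zeb2* was lower in BIT mice in each of the alternatives, at -1.70 to -0.79 on the log2 scale, and was called in 0 of 15.

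**Figure D5:**
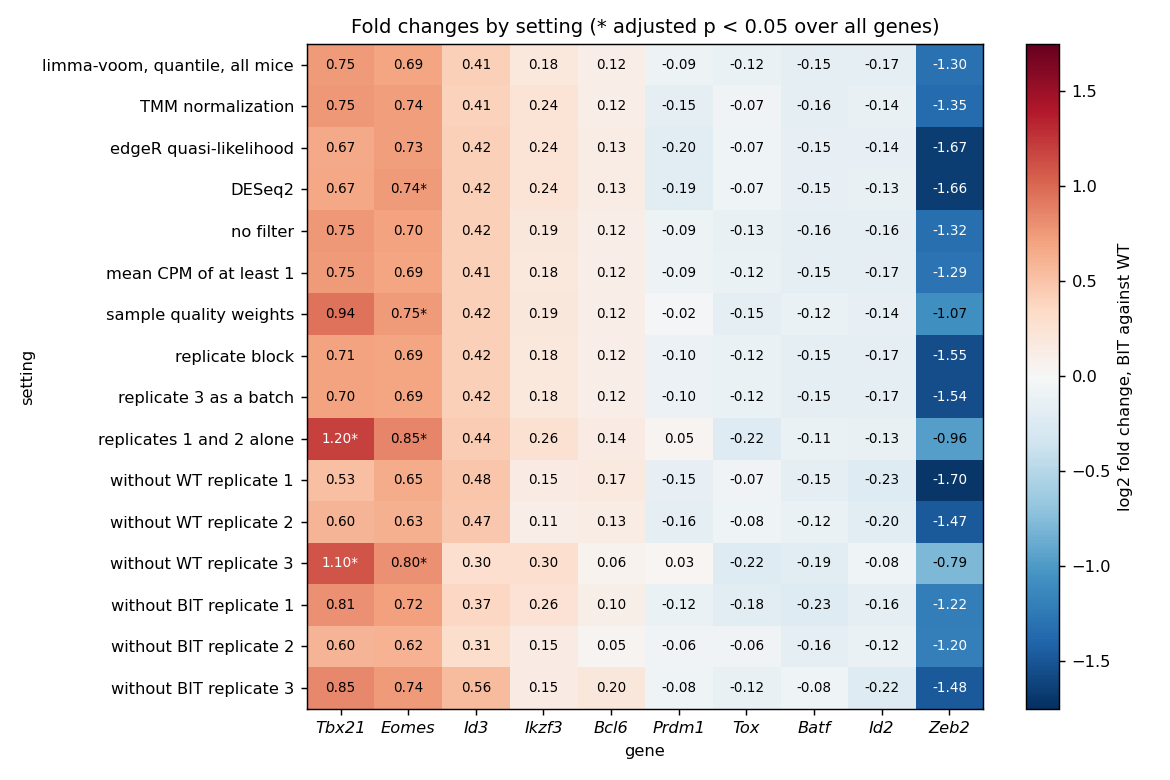
Log2 fold change in BIT against WT mice of the 10 genes (columns) under the comparison as reported and 15 alternatives (rows), with red for higher and blue for lower in BIT mice and a star at an adjusted p below 0.05 over all genes. Stars appear for *Eomes* in 4 alternatives and for *Tbx21* in 2, and *Prdm1* is the only one of the 10 genes that changes sign in them.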

How the data were processed

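RNA of sorted CD8+ T cells was sequenced after removal of ribosomal RNA with a stranded kit. The authors deposited unscaled estimated counts of each gene, made with Cutadapt 1.18, STAR 2.7.0f on GRCm39 and RSEM 1.3.1 on Gencode M38. Versions are from the submitters' processing notes, the annotation is from the study's methods, and the strand setting of the counting is not given in the sources used here. Exons of 7 of the 10 factors overlap antisense non-coding genes. All 60 values of the factors were whole numbers.

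Counts were rounded and filtered with filterByExpr of edgeR 4.0.16, steps that the study does not name. They were then quantile-normalized and compared with limma-voom (limma 3.58.1, R 4.3.3), both of which the study names, with Benjamini-Hochberg adjustment over all genes and a call at 0.05. Levels are CPM with TMM factors, per kb of exon in Gencode M39 on the same assembly where genes are compared. DESeq2 1.42.0 and edgeR's quasi-likelihood test were alternatives. The comparison was tested on simulated data. Depth limits low genes, since a count of 0 allows up to 3 counts (0.0567 to 0.0801 CPM, counting error only).

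The members, lists and tests were chosen with earlier results of these data known, and the motifs after the fits. Named were all 10 factors, list genes past the threshold or else the 2 smallest p values of a list, *Psmb8*, *Psmb11*, *Zeb1* and the nearest profiles. *Cxcr3*, *Prf1*, *Nkg7*, *Cx3cr1*, *Klrg1*, *S1pr5*, *Gzmb*, *Ifng*, *Fos*, *Fosb*, *Jun*, *Xist* and *Cd4* were named after their values were seen. Markers of plasma cells (1.25 to 3.47 CPM in all in WT and 1.77 to 2.71 in BIT mice, *Tnfrsf17* at 0), NK cells (3.33 to 3.96 and 2.62 to 4.57), CD4 T cells (3.83 to 5.32 and 3.4 to 4.33) and γδ T cells (6.4 to 7.29 and 5.68 to 7.74) were summed as for B and myeloid cells. With 1 library per mouse, the spread that p-values are set against holds differences between mice and between libraries together.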

Additional observations from a re-analysis of the deposited data

How the results depend on the processing

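Of 150 refits of the 10 factors, 142 kept direction and side of the threshold. *Eomes* was called with DESeq2 (adjusted p = 5.12e-06), sample quality weights (0.0209), replicates 1 and 2 alone (0.0146) and without WT replicate 3 (0.0271), and *Tbx21* in the latter 2 settings. *Prdm1* changed sign in replicates 1 and 2 alone (0.05) and without WT replicate 3 (0.03), with values from -0.16 to 0.03 when single mice were removed. The number of factors called was thus 1 with DESeq2, 1 with sample quality weights and 2 in replicates 1 and 2 alone, and from 0 to 2 when single mice were removed. Of the list genes, 2 were called with DESeq2, *Il2rb* and *Cxcr3*, against 0.776% of all genes. In replicates 1 and 2 alone 6 were called, these with *Jun*, *Junb*, *Fos* and *Fosb*, against 0.439% of all genes. From 0 to 2 were called when single mice were removed, against 0.006% to 0.224% of all genes. Over all genes the 22 calls became 14 with edgeR's quasi-likelihood test, 125 with DESeq2, 42 with replicate 3 as a batch, 71 in replicates 1 and 2 alone, and from 1, with WT replicate 1 removed, to 37, with WT replicate 3 removed. The cause was not tested. The *Eomes* over *Tbx21* difference of -0.03 was between -0.29 and 0.14 with each mouse left out, reversing without WT replicate 1, WT replicate 2 or BIT replicate 2. The other 3 ratios reversed in no setting tried.

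Deviations from the group means correlated at 0.139, 0.0255 and 0.332 across genes between mice of the same number, so the numbers were not taken as pairs. With the replicate number as a block, 0 of the 10 factors and 21 of all genes were called, and *Eomes* was at 0.69 on the log2 scale (adjusted p = 0.118 by limma-voom). Among the BIT mice, BIT replicate 1 correlated best with WT replicate 2, at 0.244. WT replicates 1 and 3 correlated best with the BIT mouse of their own number, and the 0.332 of replicate 3 was the highest of all pairs.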

Other observations

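The immediate-early genes of the AP-1 and IRF list varied between replicates of a genotype. *Fos* was at 26.8, 24.6 and 68.8 CPM in the WT mice and at 7.29, 4.98 and 49.2 CPM in the BIT mice. *Fosb* was at 25.8, 24.4 and 71.8 CPM and at 3.61, 2.06 and 52.2 CPM, and *Jun* at 117, 137.5 and 282 CPM and at 31.1, 13.4 and 227 CPM. Replicate 3 was the highest in both genotypes for the 3 genes, and BIT replicates 1 and 2 were the lowest. The groups overlapped, with BIT replicate 3 above WT replicates 1 and 2, and the 3 genes did not pass the test with all mice (adjusted p of 0.602, 0.553 and 0.575 for *Fos*, *Fosb* and *Jun* by limma-voom). *Batf* itself was lowest in replicate 3 of both genotypes, at 21.5 and 17.9 CPM.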
